A study of Saccharomyces cerevisiae with 10 samples.

Results

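The hexose transporter (HXT) family was followed as a set of ATAC-seq peaks, which are stretches of chromatin open to the Tn5 transposase. A peak belonged to the set when the authors' annotation gave 1 of 10 transcription units as its nearest promoter: HXT1 (YHR094C), HXT2 (YMR011W), HXT3 (YDR345C), HXT4 (YHR092C), HXT5 (YHR096C), HXT7 (YDR342C), HXT8 (YJL214W), HXT10 (YFL011W), HXT14 (YNL318C), and YDR344C, a short reading frame beside the start of HXT6. The rule found 8 of the 3515 merged peaks, at 7 of the 10 units, with 2 peaks at HXT3. No peak was assigned to HXT1, HXT4 or HXT14. The budding yeast were of the strain WP35 (genotype W303 MATalpha HO::HIS3::pGAL1-YFP), which carries a yellow fluorescent protein gene behind the GAL1 promoter, and all 10 libraries shared this genotype. Cells frozen on Day 0, Day 3, Day 7, Day 10 and Day 28 of an evolution experiment, in which the lowest reporter expressers were selected repeatedly, were revived, grown for 22 h in synthetic complete medium with 0.1% mannose and then for 24 h with 0.1% mannose and 0.2% galactose. Per the paper, this sorting was daily up to Day 7, and growth from then to Day 28 was without selection. Each day had 2 libraries, and a day is the only difference that the labels give between groups. All days came from 1 evolution replicate, so the spread behind the p-values is that of libraries and not of separately evolved lines.

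Hexose transporters carry glucose, fructose and mannose across the yeast plasma membrane, and their genes differ in when they are used. HXT1 and HXT3 encode low-affinity transporters induced by high glucose, HXT2 and HXT4 transporters of higher affinity used when glucose is low, and HXT6 and HXT7 nearly identical high-affinity transporters that high glucose represses. HXT5 is used in slow growth and on poor carbon sources. Without glucose, the repressor Rgt1 binds many HXT promoters, and the membrane sensors Snf3 and Rgt2 relieve this repression when glucose is present, while the repressor Mig1 acts at high glucose.

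The peaks differed in where they lay relative to their genes on the R64 assembly. The HXT7 peak (chromosome IV, 1155872 to 1157842) covered 1914 bases before the coding start and the first 57 coding bases. The YDR344C peak (chromosome IV, 1161387 to 1163608) lay between 67 and 2288 bases before the HXT6 coding start and also covered all 444 bases of YDR344C and 652 bases of HXT3. HXT3 had a promoter peak (chromosome IV, 1164764 to 1165508), between 104 and 848 bases before its coding start, and a distal peak (1166096 to 1166951), between 1436 and 2291 bases before it, which was annotated as a transcription end site. These 4 peaks stand side by side, since HXT7, HXT6 and HXT3 follow each other on the minus strand. The HXT2 peak (chromosome XIII, 286823 to 288143) reached from 1256 bases before the coding start to 65 bases inside the gene. The HXT5 peak (chromosome VIII, 295780 to 297660) covered 1213 bases before the start, 668 bases of HXT5 and, within its upstream part, 276 bases of PAL2. The HXT10 peak (chromosome VI, 111730 to 112109) was short, at 380 bp, and lay upstream of its gene. The HXT8 peak (chromosome X, 28219 to 28402) was not at a promoter: all its 184 bp lay in the HXT8 exon, beginning 1332 bases after the coding start.

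The authors' peak caller had found the HXT7, YDR344C, HXT2, HXT5 and both HXT3 peaks on all 5 days, the HXT10 peak on 2 days (Day 10 and Day 28) and the HXT8 peak on 1 day (Day 10). HXT6 and HXT7 share 99.8% of their coding bases but 61.3% of the 500 bases before their starts. Of the 100-bp windows in the HXT7 peak, 2.24% had an exact second copy in the genome, and of those in the YDR344C peak 2.36%, against 0 in the other 6 peaks, so reads from most of each peak can be placed at 1 position.

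The stretches with matches to the Rgt1 motif CGGANNA are shown for the promoters that the results turn on. Both strands of the 1000 bases before each start were searched, and overlapping matches were counted. Each stretch is from R64 on the strand of its gene, and capitals mark the matches. HXT3 is on chromosome IV from 1164971 to 1165220 (minus strand), HXT7 from 1156569 to 1156668 (minus) and HXT6, within the YDR344C peak, from 1162201 to 1162240 (minus). HXT2 is on chromosome XIII from 287489 to 287698 (plus), and HXT5 on chromosome VIII from 296928 to 297167 (minus).
HXT3: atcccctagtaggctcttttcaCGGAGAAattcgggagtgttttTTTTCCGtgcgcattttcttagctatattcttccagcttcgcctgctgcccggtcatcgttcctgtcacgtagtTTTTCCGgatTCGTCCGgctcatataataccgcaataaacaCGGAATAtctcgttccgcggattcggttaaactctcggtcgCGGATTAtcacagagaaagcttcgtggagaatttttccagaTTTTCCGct
HXT7: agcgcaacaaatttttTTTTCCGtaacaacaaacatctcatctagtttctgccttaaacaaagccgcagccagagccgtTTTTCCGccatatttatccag
HXT6: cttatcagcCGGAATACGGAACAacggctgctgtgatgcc
HXT2: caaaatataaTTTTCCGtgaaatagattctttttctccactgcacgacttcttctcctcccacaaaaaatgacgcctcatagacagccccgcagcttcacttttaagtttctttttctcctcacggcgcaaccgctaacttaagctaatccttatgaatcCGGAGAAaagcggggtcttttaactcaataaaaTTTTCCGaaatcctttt
HXT5: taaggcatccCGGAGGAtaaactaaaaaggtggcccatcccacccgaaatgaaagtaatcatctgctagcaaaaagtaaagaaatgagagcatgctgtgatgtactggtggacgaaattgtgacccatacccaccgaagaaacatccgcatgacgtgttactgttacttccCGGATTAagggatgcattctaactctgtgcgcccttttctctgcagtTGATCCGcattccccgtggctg

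The motif is common: 66.5% of 5996 genes had a match in this window, with a median of 1. HXT3 had 9 matches, the highest number of any gene, and 7 of them lie in the stretch above. HXT1 had 8, HXT8 6, HXT5 4, HXT2, HXT4 and HXT6 3 each, HXT7 and HXT14 2 each, and HXT10 none. At least 4 matches, as at HXT5, occurred before 3.49% of genes, and at least 2, as at HXT7, before 31.6%. The Mig1 core (GCGGGG or GTGGGG, and also CCGGGG or CTGGGG) was found before 41.8% of genes, 4 times before HXT2 and HXT4 and 2 times before HXT3 and HXT7. A match is a string of letters and was not tested for binding.

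The libraries held between 4748625 and 18693542 counts in peaks, and replicates of each day differed beyond counting noise, with a chi-square per peak between 6.18 and 25.8. Of the 10 libraries, 5 were sequenced in 2 runs (both of Day 3, both of Day 28 and that of Day 10 whose label carries a prime, called primed here), so outside Day 10 the number of runs cannot be told apart from the day. Values below are the authors' normalized counts, in which each library has its own scale. Differences between days were tested on raw counts with edgeR's quasi-likelihood method after TMM normalization, which gives each library 1 scale, and a peak was called at a Benjamini-Hochberg adjusted p under 0.05 over all 3515 peaks.

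Per length, 5 of the 8 peaks were near the top of all peaks. The YDR344C peak averaged 6008 normalized counts per kb over the 10 libraries, HXT2 5875, the HXT3 promoter 5612, HXT7 5592 and HXT5 5527, against a median of 2206 over all peaks. These 5 peaks stood between the 94.2 and 96.0 percentiles of all peaks, and their library ranges overlapped, so their order is not resolved. The HXT3 distal peak averaged 4082, HXT8 2696 and HXT10, though upstream of its gene, 2200.1 normalized counts per kb. Raw counts ranged from 227 (HXT8, lowest library) to 22957 (YDR344C, highest library).

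**Figure D1:**
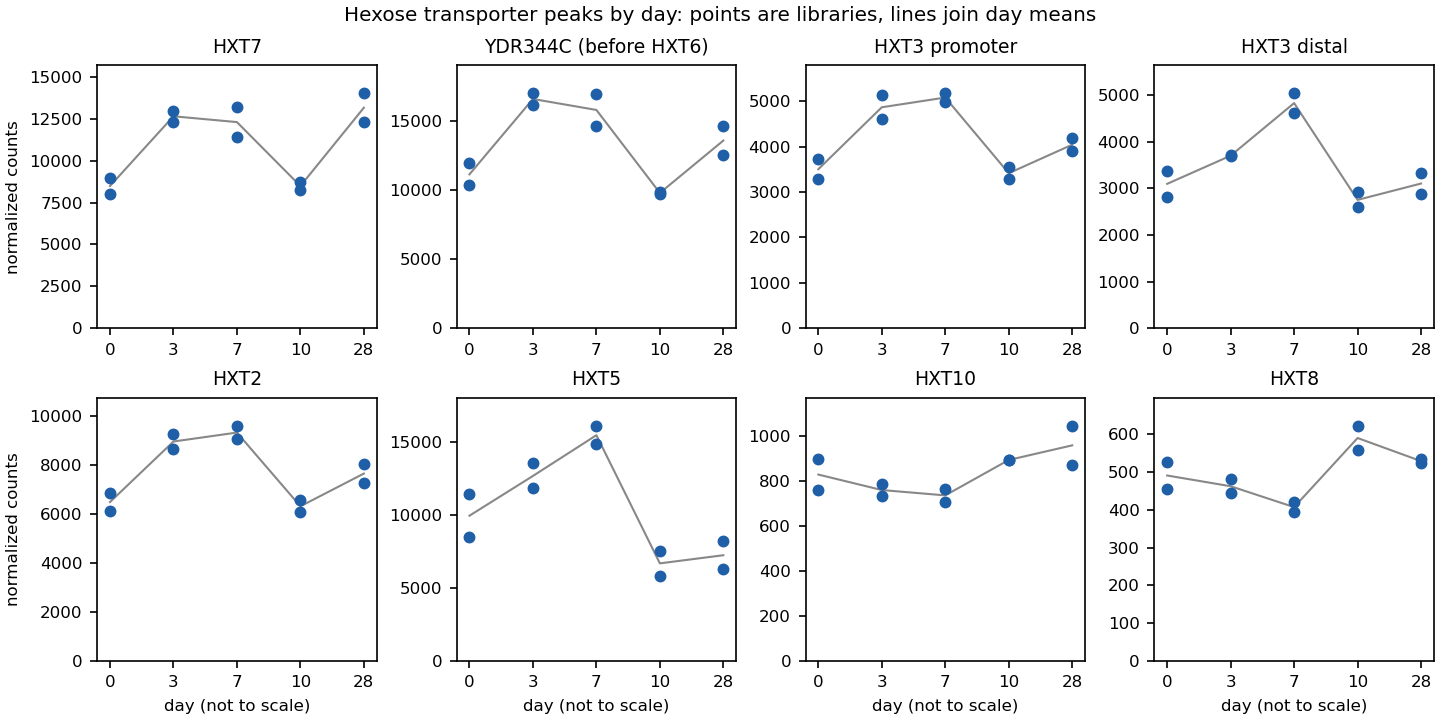
Normalized counts (vertical axis, starting at 0) of the 8 hexose transporter peaks on Day 0, 3, 7, 10 and 28 (horizontal axis, not to scale); points are libraries, lines join day means. The HXT7, YDR344C, HXT3, HXT2 and HXT5 peaks were low on Day 10 relative to Day 7, and HXT7 was high again on Day 28.

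The HXT7 peak, at the gene of a high-affinity transporter, had 8014 and 8966 normalized counts (Day 0), 12323 and 12987 (Day 3), 13215 and 11400.1 (Day 7), 8268 and 8716 (Day 10) and 12313 and 14019 (Day 28). The Day 0 and Day 10 libraries were low and did not overlap those of the other 3 days. For single pairs of days this was common. Day 3 lay above Day 0 for 34.1% of all peaks, Day 7 above Day 0 for 39.6% and Day 28 above Day 0 for 28.3%. Day 10 lay below Day 7 for 44.6%, and Day 28 above Day 10 for 21.2%. The share with the whole pattern was not counted. The YDR344C peak, before the start of HXT6, had 10329 and 11898 normalized counts (Day 0), 16154 and 16955 (Day 3), 16932 and 14591 (Day 7), 9846 and 9694 (Day 10) and 12512 and 14593 (Day 28). It shared the highs of HXT7 on Day 3 and Day 7, but both its Day 28 libraries lay below both Day 3 libraries, whereas those of HXT7 overlapped. The share of all peaks for these 2 days was not counted.

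The HXT3 promoter peak had 3287 and 3716 normalized counts (Day 0), 4598 and 5135 (Day 3), 5171 and 4989.8 (Day 7), 3547 and 3281 (Day 10) and 3901 and 4184 (Day 28). The HXT3 distal peak had 2821 and 3369 normalized counts (Day 0), 3704 and 3693 (Day 3), 5032 and 4618 (Day 7), 2909 and 2593 (Day 10) and 2878 and 3325 (Day 28). Both peaks of this low-affinity transporter gene were highest on Day 7 by their means, but the distal one was still between Day 0 and Day 7 on Day 3, where the promoter one was near its Day 7 level.

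The HXT5 peak, at the gene used in slow growth, had 8470.3 and 11417 normalized counts (Day 0), 11809 and 13525 (Day 3), 16088 and 14829 (Day 7), 7551 and 5804 (Day 10) and 6266 and 8203 (Day 28). Of the 8 peaks it had the largest ratio of highest to lowest library, and its Day 28 libraries both lay below both Day 0 libraries, as did those of 26.7% of all peaks. The HXT2 peak had 6112 and 6882 normalized counts (Day 0), 8657 and 9293 (Day 3), 9609.6 and 9074 (Day 7), 6577 and 6073 (Day 10) and 7282 and 8047 (Day 28). Its Day 28 libraries lay above both Day 10 libraries, as for 21.2% of all peaks, and above both Day 0 libraries, as for 28.3%. They lay below those of Day 3 and Day 7, for which the share of all peaks was not counted.

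The 2 peaks with the fewest counts had another order of days. The HXT10 peak had 897 and 762 normalized counts (Day 0), 788 and 733 (Day 3), 766 and 708 (Day 7), 896 and 893 (Day 10) and 1046 and 873 (Day 28). The HXT8 peak had 527 and 455 normalized counts (Day 0), 444 and 481 (Day 3), 393 and 421 (Day 7), 558 and 622 (Day 10) and 524 and 534 (Day 28). Both had their lowest mean on Day 7, a day on which the peak caller had found neither of them.

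In the test over all 5 days, 8 of the 8 peaks were called, against 71.2% of all peaks, so this count does not set the family apart. After a loess correction, which takes out the change that peaks of like abundance share, 6 of the 8 were called in the same test, against 61.7% of all peaks, and HXT10 and HXT8 were not.

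Day 3 against Day 0 addresses the first days of selection. The 5 peaks of HXT7, YDR344C, HXT2 and HXT3 (promoter and distal) were higher on Day 3, and none was lower. The log2 fold change was 0.55 ± 0.17 (SE, n = 2 per day) for HXT7 (edgeR adjusted p = 0.0134), 0.55 ± 0.20 for YDR344C (0.0365), 0.45 ± 0.10 for the HXT3 promoter (1.29e-04), 0.44 ± 0.14 for HXT2 (0.0179) and 0.23 ± 0.09 for the HXT3 distal peak (0.0394). HXT5 missed the threshold at 0.32 (adjusted p = 0.183). Over all peaks 18.6% were called, and 9.59% were called higher. On Day 3 the libraries of these 5 peaks and of HXT5 all lay above those of Day 0, as they did for 34.1% of all peaks. After loess on abundance 2 peaks were called, HXT7 at 0.23 (adjusted p = 0.0296) and the HXT3 promoter at 0.36 (0.0129), with 11.4% of all peaks called. Only the call of the HXT3 promoter held with each library left out in turn, at 0.36 to 0.55. The calls of HXT7, YDR344C, HXT2 and the HXT3 distal peak were lost without Day 0 library b and without either Day 3 library. With 1 library left out, HXT5 ran from 0.12 to 0.56.

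Between Day 7 and Day 3, 2 of the 8 peaks were called, both higher on Day 7. The HXT3 distal peak was higher on Day 7 by 0.39 ± 0.06 on the log2 scale (SE, n = 2 per day, edgeR adjusted p = 2.58e-07), and HXT5 by 0.29 ± 0.10 (adjusted p = 0.0161), while 32.1% of all peaks were called and 14.7% were called higher. The other 6 log2 fold changes ran from -0.18 (HXT8) to 0.07 (HXT3 promoter), and none passed. After loess the same 2 peaks were called, the HXT3 distal peak at 0.37 and HXT5 at 0.26, with 36.0% of all peaks called. The distal peak was called with each library left out in turn. HXT5 was not called without the unprimed Day 3 library (0.21, adjusted p = 0.12), without Day 7 library a (0.24, 0.401) or without Day 7 library c (0.34, 0.19), and the HXT3 promoter was called without the primed Day 3 library (0.14, 0.038).

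Over the whole first week, 6 of the 8 peaks were higher on Day 7 than on Day 0, against 20.5% of all peaks called higher and 45.1% called in either direction. The log2 fold changes were 0.62 ± 0.08 for the HXT3 distal peak (SE, n = 2 per day, edgeR adjusted p = 1.41e-04), 0.61 ± 0.16 for HXT5 (0.00949), 0.51 ± 0.07 for the HXT3 promoter (2.16e-04), 0.51 ± 0.13 for HXT7 (0.00844), 0.50 ± 0.11 for HXT2 (0.00281) and 0.48 ± 0.16 for YDR344C (0.0228). HXT10 had -0.19 and HXT8 -0.29, and neither passed. After loess, 5 were called (35.6% of all peaks), with YDR344C no longer among them at 0.07, and HXT7 at 0.17, HXT2 at 0.23 and HXT5 at 0.23 were each smaller than uncorrected. The calls of both HXT3 peaks held with each library left out in turn. Those of HXT7, YDR344C, HXT2 and HXT5 were each lost without at least 1 of the libraries. With 1 library left out, HXT10 ran from -0.30 to -0.07 and HXT8 from -0.39 to -0.19.

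**Figure D2:**
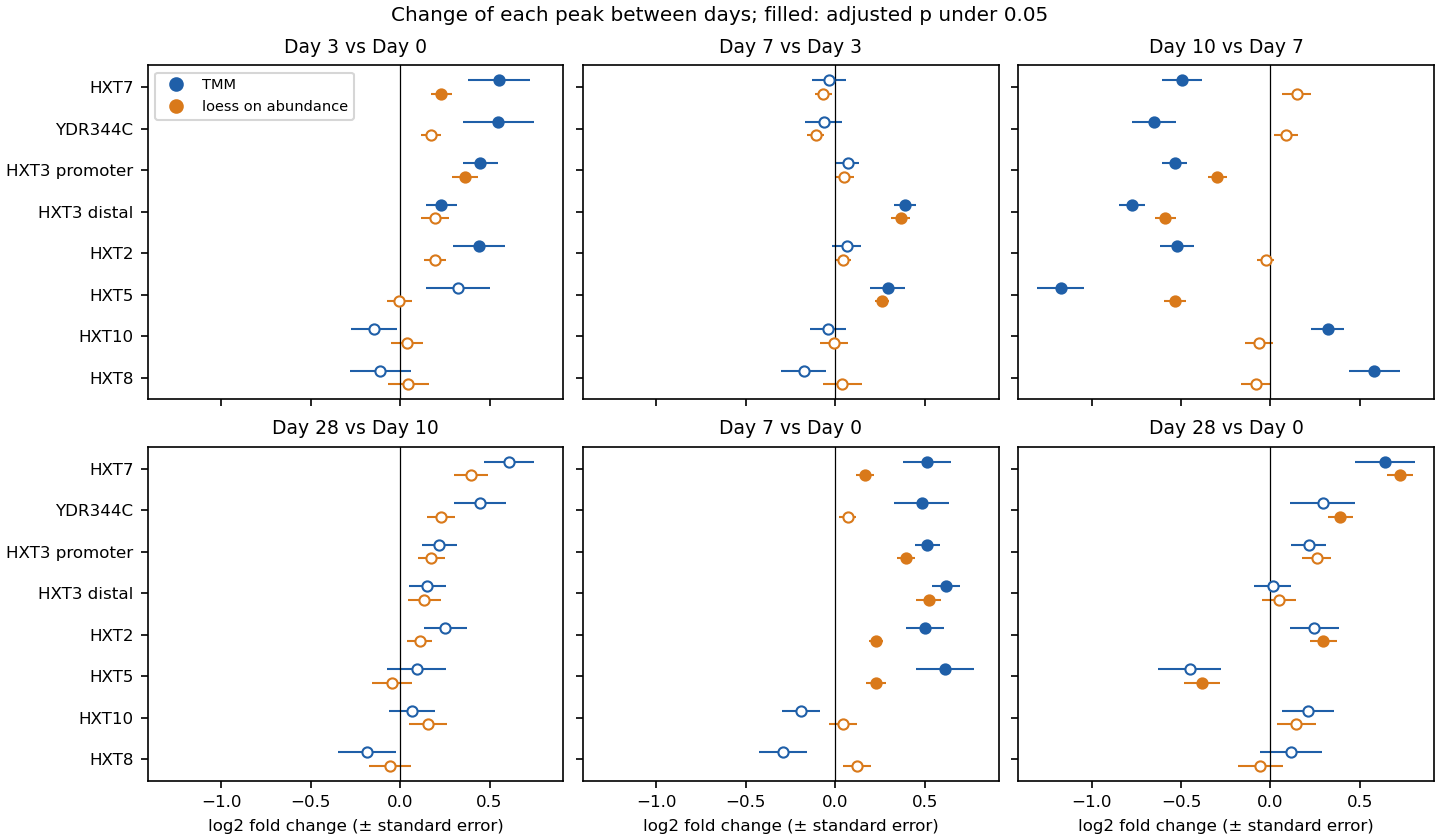
Log2 fold change (horizontal axis, later over earlier day) of each peak in 6 comparisons of days, with its standard error; blue is TMM, orange is after loess on abundance, and filled points have an adjusted p under 0.05. On Day 10 against Day 7 all 8 blue points are filled, but only HXT5 and both HXT3 peaks keep a filled orange one.

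The comparison of Day 10 with Day 7 had the most calls. The HXT7, YDR344C, HXT2, HXT5 and both HXT3 peaks were lower on Day 10, and the HXT10 and HXT8 peaks were higher, so that 8 of 8 were called. The peak caller had found the HXT10 and HXT8 peaks on Day 10 but not on Day 7. Their higher counts on Day 10 thus follow in part from how they entered the set and are no independent result. Among all peaks 70.2% were called in this comparison (32.8% lower and 37.4% higher), so the count of calls does not set the family apart. The HXT5 peak fell most, by 1.17 on the log2 scale (SE 0.13, n = 2 per day, edgeR adjusted p = 4.78e-06). The HXT3 distal peak fell by 0.77 (1.67e-06), YDR344C by 0.65 (2.62e-04), the HXT3 promoter by 0.54 (1.61e-05), HXT2 by 0.52 (2.00e-04) and HXT7 by 0.50 (0.00124). HXT10 was higher by 0.32 (adjusted p = 0.00678) and HXT8 by 0.58 (0.00200). The libraries of the days did not overlap in any of the 8 peaks, which held for 43.8% of all peaks upward and 44.6% downward. Without Day 7 library a, the calls of HXT7 (-0.39), HXT10 (0.37) and HXT8 (0.53) were lost. Without Day 7 library c, that of HXT10 was lost (0.26).

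These directions went with how many counts a peak has. Over all 3515 peaks, the Pearson correlation of the log2 fold change with mean abundance was -0.74 for Day 10 against Day 7 and 0.64 for Day 3 against Day 0, given as a description since the peaks share their libraries. By abundance, YDR344C stood at the 97.1 percentile, HXT7 at 95.0, HXT5 at 94.3, HXT2 at 90.2, the HXT3 promoter at 75.7, the HXT3 distal peak at 70.6, HXT10 at 15.2 and HXT8 at 3.81. After loess on abundance 59.9% of all peaks were still called in Day 10 against Day 7, but only 3 of the 8 hexose transporter peaks: the HXT3 distal peak fell by 0.59 (SE 0.06, adjusted p = 6.19e-05), HXT5 by 0.53 (9.43e-05) and the HXT3 promoter by 0.30 (9.32e-04). The direction turned for HXT7 (0.15), YDR344C (0.09), HXT10 (-0.06) and HXT8 (-0.08), none of which passed. HXT2 was at -0.028. What makes abundant and sparse peaks move apart between days was not tested.

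**Figure D3:**
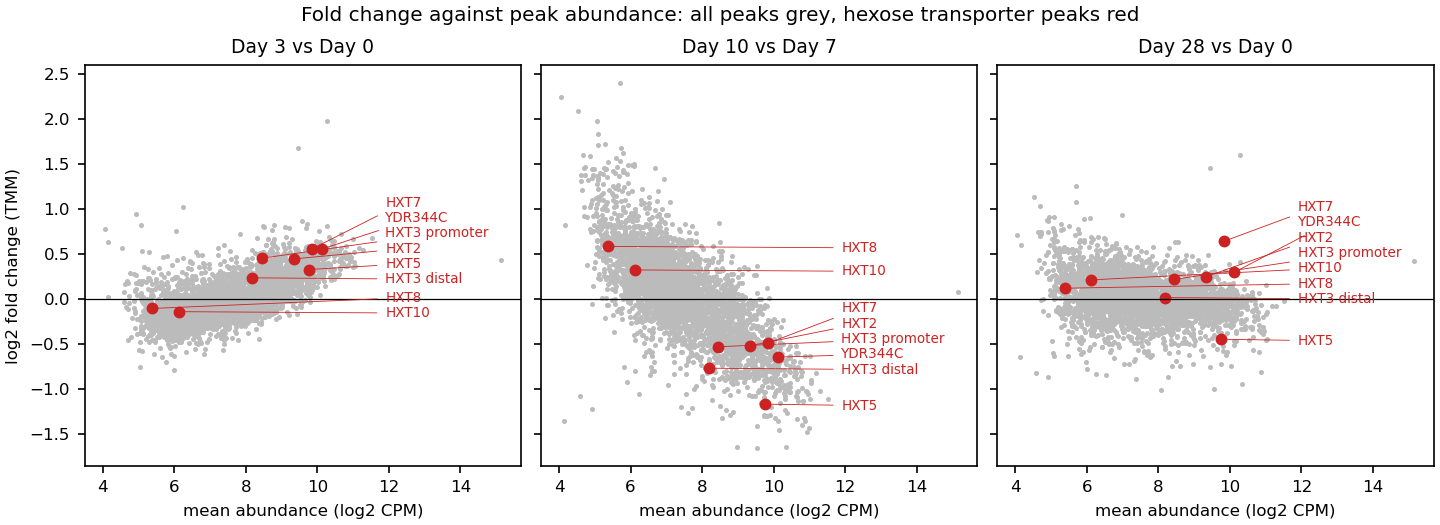
Log2 fold change (vertical axis, TMM) against mean abundance as log2 CPM (horizontal axis) for all 3515 peaks in grey and the 8 hexose transporter peaks in red. On Day 10 against Day 7 HXT5 and the HXT3 distal peak lie below the bulk of peaks of like abundance, and on Day 28 against Day 0 HXT7 lies above it.

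Between Day 28 and Day 10 edgeR called 0% of all 3515 peaks, with 195 at an unadjusted p under 0.05, and so none of the 8. The largest log2 fold change in the family was that of HXT7, 0.61 ± 0.14 (SE, n = 2 per day, edgeR adjusted p = 0.812, unadjusted p = 0.00144). YDR344C followed at 0.45 ± 0.14, then HXT2 at 0.25, the HXT3 promoter at 0.22, the HXT3 distal peak at 0.15, HXT5 at 0.09, HXT10 at 0.07 and HXT8 at -0.19. DESeq2 called HXT7 (0.62, adjusted p = 3.39e-04) and YDR344C (0.46, adjusted p = 0.0359), among 8 of the 517 peaks it kept for adjustment (1.55%). These values are not corrected for abundance, with which the log2 fold change had a Pearson correlation of 0.62 over all peaks here. After loess HXT7 was at 0.40, YDR344C at 0.23, HXT10 at 0.15 and HXT5 at -0.05, and none of the 8 was called. The Day 28 libraries lay above those of Day 10 for HXT7, YDR344C, HXT2 and the HXT3 promoter and below for HXT8, against 21.2% and 14.8% of all peaks.

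Set against the start of the experiment, HXT7 stood out among the 8 by its call. On Day 28 it was higher than on Day 0 by 0.64 ± 0.17 on the log2 scale (SE, n = 2 per day, edgeR adjusted p = 0.0256), the only call among the 8, while 8.82% of all peaks were called and 4.52% called higher. With any 1 of the 4 libraries left out, this call was lost, with fold changes from 0.55 to 0.72 and adjusted p from 0.134 to 0.182. After loess 4 peaks were called (10.9% of all peaks): HXT7 at 0.73 (adjusted p = 5.10e-04), YDR344C at 0.39 (0.0122), HXT2 at 0.30 (0.028) and, lower on Day 28, HXT5 at -0.38 (0.0312). Uncorrected, HXT5 had -0.45 (adjusted p = 0.113) and passed without Day 0 library b (-0.65, 0.0207). The other uncorrected values ran from 0.01 (HXT3 distal) to 0.29 (YDR344C).

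Ratios within a library do not depend on the 1 scale of each library. They can still shift with the abundance trend where the 2 peaks differ in abundance. HXT7 and the HXT3 promoter, at the 95.0 and 75.7 percentiles, do so. The ratio of HXT7 to YDR344C counts, of the gene pair HXT7 and HXT6, was 0.776 and 0.754 (Day 0), 0.763 and 0.766 (Day 3), 0.780 and 0.781 (Day 7), 0.840 and 0.899 (Day 10) and 0.984 and 0.961 (Day 28). It thus stayed within a narrow band through Day 7 and was above it in all 4 later libraries. HXT7 over the HXT3 promoter was between 2.28 and 2.68 in the 8 libraries through Day 10, and 3.16 and 3.35 on Day 28. HXT7 over HXT2 was between 1.26 and 1.44 in those 8 libraries, and 1.69 and 1.74 on Day 28. HXT5 over HXT2 was between 1.36 and 1.67 in the 6 libraries through Day 7. Later it was lower, at 1.15 and 0.956 (Day 10) and 0.861 and 1.02 (Day 28). A ratio shows that its 2 peaks changed unequally, not which of them did, and these ratios were picked with results known and not tested.

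**Figure D4:**
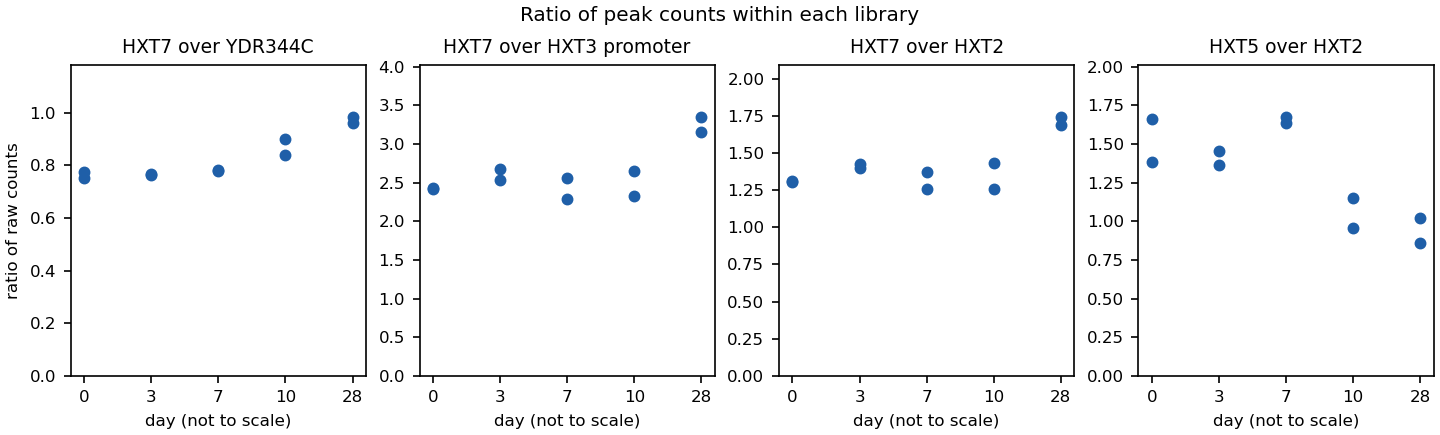
Ratio of raw counts of 2 peaks within each library (vertical axis, starting at 0) by day (horizontal axis, not to scale), each point a library. HXT7 over YDR344C was 0.754 to 0.781 through Day 7 and 0.961 and 0.984 on Day 28, and HXT5 over HXT2 was lower on Day 10 and Day 28 than before.

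The counts of neighbouring peaks below stand beside these shares of all peaks. On Day 3 against Day 0, 18.6% were called, 9.59% higher. On Day 10 against Day 7, 70.2% were called, 37.4% higher and 32.8% lower. On Day 28 against Day 0, 8.82% were called, 4.52% higher. The HXT7, YDR344C and HXT3 peaks have 12 other peaks within 20 kb of them. On Day 3 against Day 0, 0 of these 12 neighbours were called higher and 1 lower, with log2 fold changes from -0.28 to 0.19 and a median of 0.02. On Day 10 against Day 7, 4 were higher and 2 lower, from -0.45 to 0.54. On Day 28 against Day 0, 1 was higher, at 0.43, and the lowest was -0.14. Around HXT5, where 12 other peaks lie within 20 kb, 4 were lower on Day 10 than on Day 7 and 5 higher, from -1.08 to 1.44. The lower ones include the peaks before the family genes HXT4 (-0.36) and HXT1 (-0.69), which were assigned to other units. On Day 3 against Day 0, 1 of the HXT5 neighbours was higher and 1 lower, from -0.23 to 0.31. Of the 10 other peaks around HXT2, 3 were higher on Day 3 than on Day 0 and 0 lower, with a median of 0.16 and a maximum of 0.56, which is above the 0.44 of HXT2 itself. On Day 10 against Day 7, 4 of these 10 were higher and 4 lower, from -0.66 to 0.77. In the same comparison 4 of the 11 neighbours of HXT10 were higher and 4 lower, and 1 of the 7 of HXT8 was higher and 2 lower. One of the lower ones is the peak just before the HXT8 start, assigned to YJL216C (-0.59), so the neighbours include peaks beside family genes. The difference between members and neighbours was not tested.

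**Figure D5:**
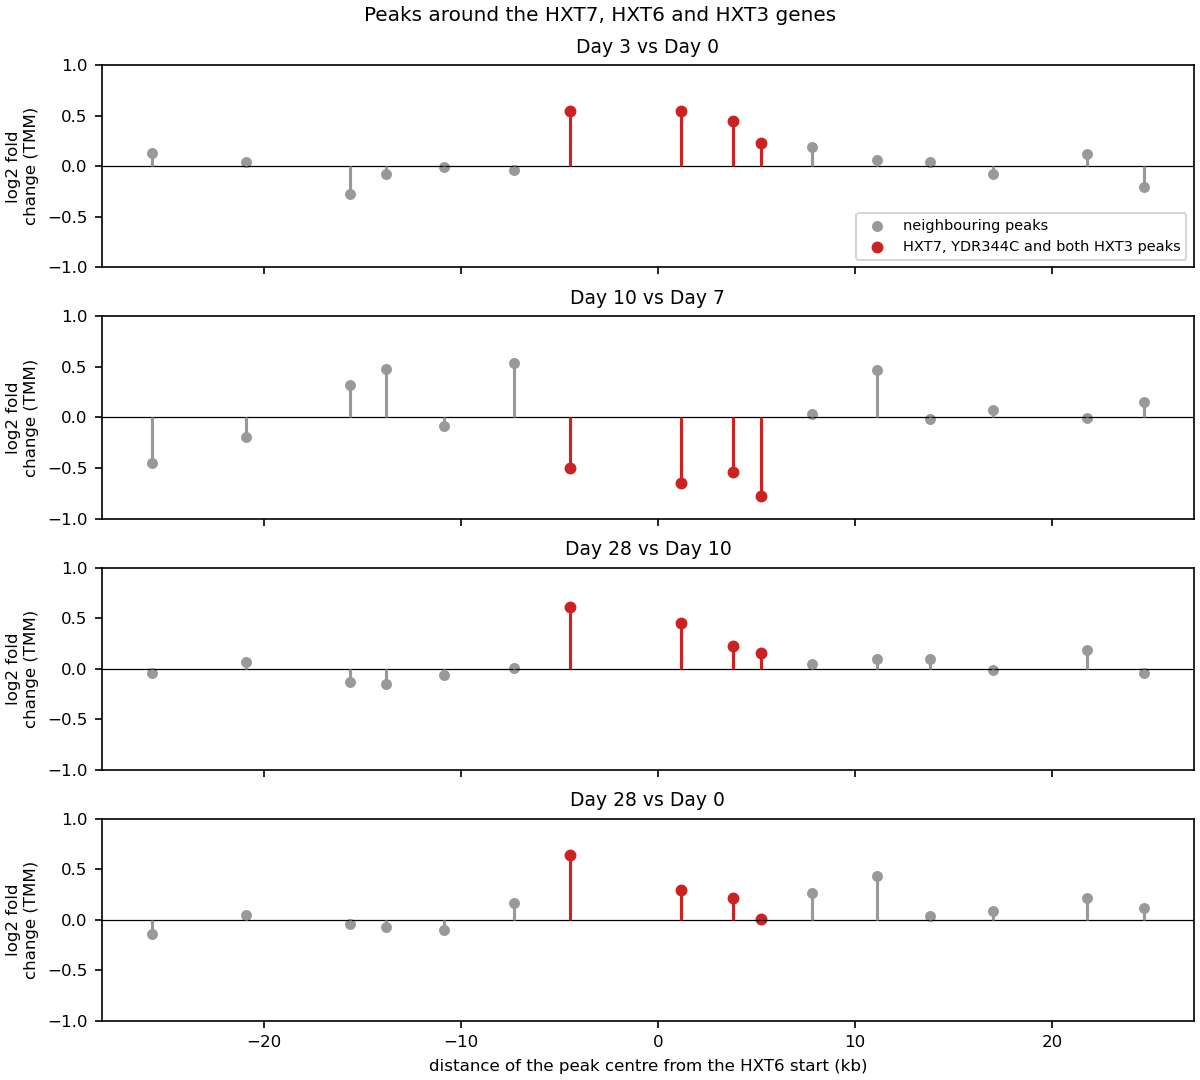
Log2 fold change (vertical axis, TMM) of each peak around the HXT7, HXT6 and HXT3 genes against the distance of its centre from the HXT6 coding start in kb (horizontal axis; negative values lie downstream of HXT6); red marks the HXT7, YDR344C and HXT3 peaks and grey the 12 neighbours. The red peaks lie at 0.23 to 0.55 on Day 3 against Day 0, and the grey ones at -0.28 to 0.19.

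Genes of the family without an assigned peak had peaks near their starts that the annotation gave to other units. The peak from 359 to 2628 bases before HXT1 (chromosome VIII, 292984 to 295253, assigned to YHR095W) had 8939.7 and 10848 normalized counts (Day 0), 10916 and 10841 (Day 3), 12097 and 11791 (Day 7), 7679.8 and 6746 (Day 10) and 7069.5 and 8783 (Day 28). It also covers 585 bases of HXT5, its neighbour, and like the HXT5 peak it was lower on Day 10 than on Day 7, by 0.69 (SE 0.11, edgeR adjusted p = 6.06e-05), and after loess by 0.10, which was not called. The peak upstream of HXT4 (chromosome VIII, 289126 to 290500, assigned to YHR093W) covers 549 bases of AHT1. It fell by 0.36 on Day 10 against Day 7 (edgeR adjusted p = 7.37e-04), and after loess was 0.02 lower and not called. The peak before HXT14 (chromosome XIV, 40458 to 40916, assigned to YNL317W) covers 298 bases of PFS2. It was higher by 0.32 on Day 10 against Day 7 (0.00516), and at -0.01 after loess.

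The peak upstream of HXT8 (chromosome X, 25929 to 26861, assigned to YJL216C) was lower on Day 10 than on Day 7, where the exonic HXT8 peak was higher. This upstream peak lies between 26 and 958 bases before HXT8 and also covers 158 bases of IMA5, so its signal need not belong to HXT8. It had 4792 and 4684 normalized counts on Day 7, against 3118 and 3469.7 on Day 0, a log2 fold change of 0.50 ± 0.07 (SE, n = 2 per day, edgeR adjusted p = 1.67e-04), and it fell by 0.59 on Day 10 against Day 7 (2.74e-05). After loess both changes were still called, at 0.40 and -0.39. The HXT11 promoter peak (chromosome XV, 24488 to 25099) was higher on Day 7 than on Day 0 by 0.33 and fell by 0.42 on Day 10 against Day 7, and by 0.49 after loess (1.69e-04). The HXT13 promoter peak (chromosome V, 23196 to 24117) was higher on Day 3 than on Day 0 by 0.26 (adjusted p = 0.0164; 0.23 and not called after loess) and fell by 0.27 on Day 10 against Day 7 (0.00112), and by 0.16 after loess (0.0244).

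The promoter peak of GAL2 (chromosome XII, 289108 to 290690), the galactose permease and a relative of the hexose transporters, took another course. It had 4852 and 4929 normalized counts (Day 0), 5935 and 6804 (Day 3), 4701 and 4545 (Day 7), 4117 and 3967 (Day 10) and 4415 and 4633 (Day 28). It was higher on Day 3 than on Day 0 by 0.36 (edgeR adjusted p = 0.0164; 0.18 and not called after loess) and fell by 0.46 on Day 7 against Day 3 (5.21e-08; -0.47 after loess), where no hexose transporter peak of the 8 was called lower. No peak lay in the 1000 bases before HXT9, HXT12, HXT15, HXT16 or HXT17.

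Of 28 genes of glucose sensing, hexose phosphorylation and the rest of the family, 11 had an assigned peak, 12 peaks in all. On Day 3 against Day 0, 3 of the 12 (GAL2, HXT11 and HXT13) were higher and 0 lower. On Day 7 against Day 3, 2 were higher and 5 lower, and on Day 10 against Day 7, 5 and 5. On Day 28 against Day 10 none was called. On Day 7 against Day 0, 4 were higher and 5 lower, and on Day 28 against Day 0, 1 (SNF4, 0.34) and 0. Of all peaks, 18.6%, 32.1%, 70.2%, 0%, 45.1% and 8.82% were called in these comparisons, in the order given. Whether the list differs from these shares was not tested. The largest changes between consecutive days were at a second GAL2 peak, which begins at 291415 inside the gene. It fell by 1.42 on Day 7 against Day 3 (edgeR adjusted p = 3.88e-15, and -1.23 after loess). On Day 10 against Day 7 it was higher by 1.40 (9.33e-06, and 0.68 after loess). The peak caller had found it on Day 0, Day 3 and Day 10 but not on Day 7. Its low counts on Day 7 thus follow in part from how it entered the list and are no independent result. SNF3, the gene of a glucose sensor, fell by 0.33 on Day 7 against Day 3 (edgeR adjusted p = 5.01e-06) and was higher by 0.64 on Day 10 against Day 7 (2.00e-06; 0.70 after loess). HXK1 and GLK1, which encode sugar kinases, fell by 0.72 and 0.83 on Day 10 against Day 7, and after loess stood at 0.0029 and 0.089, neither called. HXK2, the gene of the main hexokinase on glucose, was higher by 0.57 on Day 10 against Day 7, and at 0.06 and not called after loess. The peak caller had found the HXK2 peak on Day 28 only, so it entered the list through a day after selection.

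The peaks whose normalized counts followed HXT7 most closely over the 10 libraries, by Pearson's r as a description, were assigned to YBR144C (0.963; chromosome II, 532134 to 534128), YHR210C (0.944; chromosome VIII, 521414 to 523149) and YCL030C (0.932; chromosome III, 68168 to 68941). Within the family YDR344C had 0.894, HXT2 0.851, the HXT3 promoter 0.814, the HXT3 distal peak 0.597, HXT5 0.424, HXT10 -0.23 and HXT8 -0.48. Over all peaks outside the family the median was -0.04 and the 95th percentile 0.732, and the points share library depth and the abundance trend above.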

How the data were processed

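ATAC-seq counts of 10 libraries, 2 per day, were used. Per the labels and the paper's methods, the authors trimmed reads with Trim Galore 0.5.0, mapped them with Bowtie2 2.2.9 to R64, called peaks per day with MACS2 2.1.1, merged them with bedtools 2.30.0, annotated them with HOMER, and deposited raw counts per merged peak from featureCounts 1.6.3. The deposited normalized counts are a signal equal to raw counts over 1 size factor per library. The sources used here do not state how duplicate or multiply aligned reads were treated. The reference is S288C and the strain W303, and base differences between them were not examined.

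Members were found by the annotated nearest promoter, and coordinates and sequence were taken from the R64 genome and annotation of RefSeq. The members and lists were chosen with earlier results of these data known. All members, peaks in the 1000 bases before family starts, pathway peaks by example, and the 3 peaks most correlated with HXT7 are named. Days were compared with edgeR 4.0.16 (R 4.3.3; TMM, filterByExpr, which removed 0 peaks, quasi-likelihood test, Benjamini-Hochberg threshold 0.05), on the 4 libraries of each pair of days and on all 10 for the test over days. Alternatives were DESeq2 1.42.0, its size factors, total counts, loess on abundance (span 0.3), no filter, a mean of at least 500 counts, 1 fit of all libraries, each library left out, and a replicate block by primed and unprimed labels. With a library left out, the lone library is assumed to vary like the others. The procedures were tested on simulated data.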

Additional observations from a re-analysis of the deposited data

How the results depend on the processing

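Counts of called hexose transporter peaks kept within 1.5 times of those reported with DESeq2's size factors, no filter and a mean of at least 500 counts, and changed as follows elsewhere. Loess on abundance gave 2 called for Day 3 against Day 0, 3 for Day 10 against Day 7, and 4 for Day 28 against Day 0. DESeq2 gave 2 for Day 28 against Day 10, 1 fit of all libraries 1 for Day 7 against Day 3, and total counts 2 for Day 28 against Day 0. With 1 library left out, the counts ran from 1 to 6 for Day 3 against Day 0, 1 to 3 for Day 7 against Day 3, 5 to 8 for Day 10 against Day 7, 2 to 8 for Day 7 against Day 0 and 0 to 1 for Day 28 against Day 0. In the test over 5 days they ran from 6 to 8.

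The sources do not say whether the primed and unprimed labels of Day 10 and Day 28 pair the libraries, and they were not taken as pairs. The correlation of same-label deviations from the day means was -0.67, which with so few libraries per day cannot show whether cultures were paired. For Day 28 against Day 10 the replicate block by label gave 0 called hexose transporter peaks and 0 of all peaks, and the crossed block, added after seeing the data, gave 4, with 15.2% of all peaks called.

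Directions turned in the cases below, and no turned value was called; HXT7, YDR344C, HXT10 and HXT8 for Day 10 against Day 7 had been called uncorrected. After loess, HXT10 was at 0.039, HXT5 at -0.0046 and HXT8 at 0.046 for Day 3 against Day 0, HXT8 at 0.038 for Day 7 against Day 3, HXT10 at 0.044 and HXT8 at 0.12 for Day 7 against Day 0, HXT8 at -0.057 for Day 28 against Day 0, and HXT5 at -0.047 for Day 28 against Day 10. For Day 10 against Day 7, loess put HXT7 at 0.15, YDR344C at 0.086, HXT10 at -0.064 and HXT8 at -0.083. With total counts, HXT10 was at -0.0016 for Day 28 against Day 10. With 1 library left out, the values for Day 7 against Day 3 ran from -0.0019 to 0.14 for the HXT3 promoter, -0.10 to 0.022 for HXT10, -0.14 to 0.061 for HXT7 and -0.17 to 0.031 for YDR344C. Those for Day 28 against Day 10 ran from -0.12 to 0.28 for HXT5 and -0.056 to 0.19 for HXT10, and those for Day 28 against Day 0 from -0.11 to 0.12 for the HXT3 distal peak and -0.0090 to 0.23 for HXT8. The cause was not tested.

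Calls rest on 2 libraries per day. HXT8 had as few as 227 raw counts in a library. Its standard error for Day 3 against Day 0 was 0.17, as it was for the far deeper HXT7. It was larger than that of HXT7 for Day 10 against Day 7 (0.14 and 0.11) and for Day 7 against Day 3 (0.13 and 0.09). The edgeR standard errors are the absolute log2 fold change over the square root of the F statistic of the test. Loess removes any change that peaks of like abundance share, so an effect of the day on abundant peaks and one of library quality cannot be told apart.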
